A study of Mus musculus with 12 samples.

Results

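The comparison of the double-stranded RNA antibodies J2 and K1 in control mouse intestinal epithelium rests on 4 of the 12 libraries of the series: the 2 J2 pulldowns and the 2 K1 pulldowns of the control genotype. The members were chosen by the genotype and antibody given in the labels, and no measured value entered the choice. The series holds dsRNA immunoprecipitation sequencing (antibody pulldown of dsRNA followed by sequencing) of whole intestinal epithelial cells from 2 control mice and 2 mice with deletion of Kat2a and Kat2b (DKO), with an input, a J2 and a K1 library from each animal. All animals were female and 3 months old. Control mice were injected with the solvent alone, ethanol in corn oil, while DKO mice received tamoxifen at 100 mg/kg in it daily for 4 days, with collection 2 days later. Epithelium was released with EDTA from the proximal part of the small intestine, cells were taken up in immunoprecipitation buffer, and the supernatant after centrifugation was incubated with one of the antibodies and captured on protein G beads. The labels name neither the alleles carried by the control mice nor a Cre driver, and the control mice had no tamoxifen, so control and DKO differ in drug as well as in genotype. Sample codes in the labels tie a J2 and a K1 library to the same mouse, called animal 1 and animal 2 here after the replicate numbers.

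Double-stranded RNA forms where a transcript folds back on an inverted repeat or where transcripts of opposite strands pair, as happens with RNA of the mitochondrial genome. Antibodies such as J2 and K1 bind the RNA helix and not a given sequence, and cells carry sensors for such helices that start an interferon response. The question here is which transcripts each antibody recovered in larger share than the other from the same lysates.

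The sequences below show the 2 kinds of RNA fold that the results return to. The first is the short stem-loop near the end of replication-dependent histone mRNAs, whose transcripts were recovered in larger share with K1. The 16 bases of the stem-loop are in capitals, with 5 bases on either side, and all 3 genes are on chr13. All sequences are GENCODE M21 transcripts (GRCm38), given 5′ to 3′ as the transcript strand with T for U.
Hist1h1c: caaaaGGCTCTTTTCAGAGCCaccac
Hist1h4h: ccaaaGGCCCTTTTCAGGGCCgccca
Hist1h3c: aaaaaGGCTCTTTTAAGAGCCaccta
The stem of Hist1h4h differs in sequence from the stem that Hist1h1c and Hist1h3c share, and these last differ in the loop. All 3 pair in the same way, 6 bases around a loop of 4. The second kind is a pair of long inverted repeats within 1 transcript. For 3 genes described below, 30 bases of each arm are shown, with bases that form no A-T or G-C pair with the other arm in capitals.
Slc35e2 arm 1: AagttccaggacagccaGggcAacacagag
Slc35e2 arm 2: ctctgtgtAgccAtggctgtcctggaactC
Rpa1 arm 1: attTtgttatcttcaaacagAAattAtgtc
Rpa1 arm 2: gacaCaatCCctgtttgaagataacaGaat
Ap2m1 arm 1: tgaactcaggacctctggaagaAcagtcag
Ap2m1 arm 2: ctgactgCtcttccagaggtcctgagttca
All 3 repeats lie in the 3′UTR. The arms were 169 bases long at 80.5% identity and 1054 bases apart in Slc35e2, 125 bases at 79.2% and 300.0 bases apart in Rpa1, and 157 bases at 86.6% and 241 bases apart in Ap2m1. Slc35e2 and Ap2m1 are shown as the most abundant repeat-holding genes that passed on the J2 and on the K1 side.

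Counts assigned to genes came to 15359376 and 13308021 in the J2 libraries, 16139531 and 14035066 in the K1 libraries, and 10307281 and 11474107 in the control input libraries. Values are given as CPM, a gene's count relative to the TMM-scaled total of its library, and differences as log2 fold changes coded J2 minus K1 with their standard error (SE), so that positive values are higher in J2. The tissue label was compared with markers of cell types. Summed epithelial markers (8 genes) lay between 3798 and 3927 CPM in the J2 libraries and between 6488 and 7503 CPM in the K1 libraries. All 8 passed the count filter, as did 11 leukocyte and 5 stromal and vessel genes. None of 4 red blood cell genes did, and Hbb-bt was at 0 in all 4 pulldowns. Summed stromal and vessel markers (10 genes, Lum at 0) stayed between 3.78 and 39.5 CPM in the pulldowns, low in animal 1 and higher in animal 2 with both antibodies. Their part in the results was not tested. Summed leukocyte markers (12 genes) lay between 532 and 558 CPM in the J2 libraries, between 803 and 831 CPM in the K1 libraries and between 1806 and 2116 CPM in input. In the pulldowns Cd74, described below, made up most of this sum. The median difference of the 11 leukocyte genes tested was 0.03, with 2 higher in each antibody. All these sums are relative to the library total without TMM scaling. The input, J2 and K1 libraries of an animal came from the same mouse, so differences among them describe recovery of these RNAs and not numbers of cells. Between animals, fewer cells of a type and less RNA per cell cannot be told apart in bulk samples.

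Of 13617 genes tested, 5147 differed between the antibodies (37.8%; edgeR quasi-likelihood test, Benjamini-Hochberg adjusted p under 0.05, here called passing the test), 2382 of them higher in J2 (17.5%) and 2765 higher in K1 (20.3%). At least a 2-fold difference was seen in 830 of the genes higher in J2 and in 818 of those higher in K1. Nuclear lncRNAs, mitochondrial transcripts and mRNAs with long 3′UTRs stood on the J2 side, and histone, ribosomal protein and respiratory chain mRNAs on the K1 side. With the animal as a block 8422 genes passed (61.8%), all 5147 among them, on 1 residual degree of freedom. Without TMM scaling the share higher in J2 among the genes that passed went from 46.3% to 35.7%, with the median of all genes moving from -0.02 to -0.12, and in a fit with the input libraries added it was 56.9% with a median of 0.13. Without J2 replicate 1 only 1892 genes passed and without J2 replicate 2 only 2172, whereas 5292 and 4081 passed without K1 replicate 1 and 2. Of the 5147 genes, 1437 passed in each of these 4 fits, 609 higher in J2 and 828 higher in K1. A fit of all 12 libraries, which shares 1 estimate of spread with the DKO and input groups, made 0 calls, with 3301 genes at an unadjusted p under 0.05.

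The libraries differed in the kinds of RNA they held. Reads outside annotated genes made up 15.6% and 14.2% of listed reads in the J2 libraries against 8.86% and 7.13% in the K1 libraries, with 27.0% and 25.7% in input. Counts of lncRNA genes were 1.61% and 1.23% of gene counts with J2, 0.764% and 0.619% with K1 and 4.23% and 4.74% in input. The mitochondrial chromosome held 2.20% and 2.77% with J2, 1.55% and 1.40% with K1 and 4.33% and 4.23% in input. For these 3 shares both J2 libraries lay above both K1 libraries and both pulldowns lay below input. Replication-dependent histone genes took 0.0613% and 0.0516% of gene counts with J2 and 0.199% and 0.178% with K1, against 0.315% and 0.273% in input. Cytosolic ribosomal protein genes took 0.983% and 1.02% with J2 and 1.48% and 1.54% with K1, against 1.38% and 1.43% in input. In each of the 5 shares the groups did not overlap, for which the exact two-sided permutation p of 2 libraries against 2 is 0.333, the smallest this design allows. The same held for every other class counted, protein-coding genes included, at 96.67% and 96.81% with J2 and 97.23% and 96.83% with K1. Lack of overlap thus does not set these 5 shares apart.

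**Figure D1:**
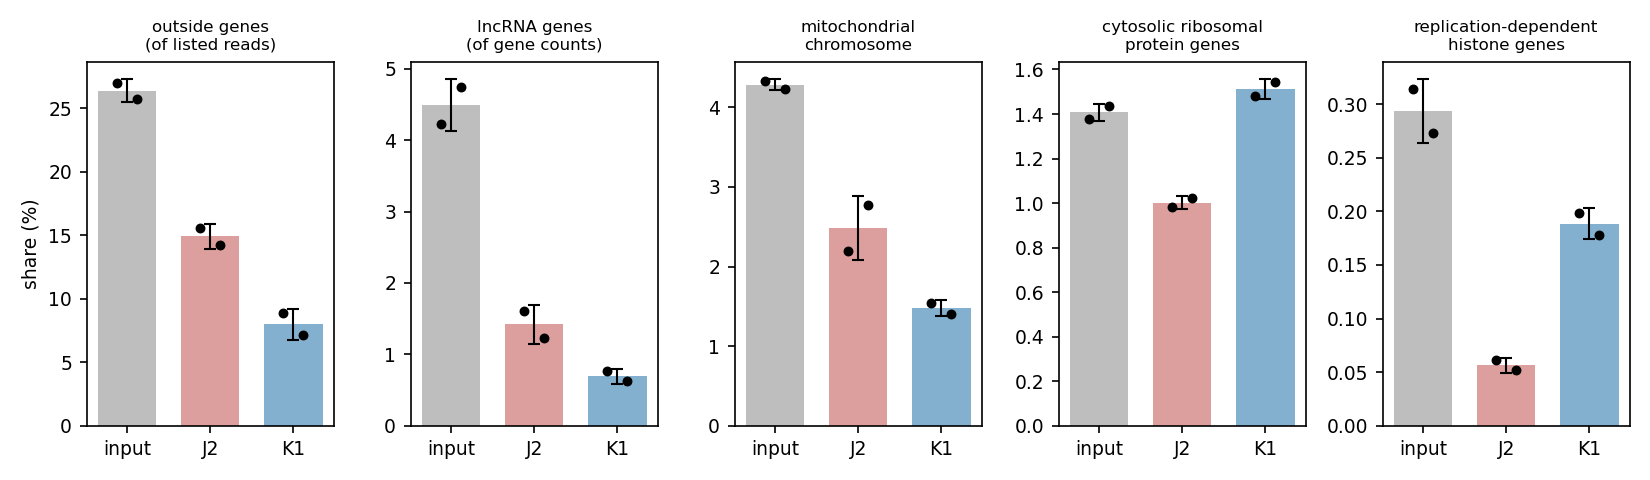
Share of listed reads outside genes and of gene counts in 4 gene classes (%, y axes from 0), for control input, J2 and K1; bars are means, error bars SD (n = 2) and points single libraries. Reads outside genes, lncRNA and the mitochondrial chromosome were higher in J2 than in K1, and ribosomal protein and histone genes higher in K1.

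The 12 genes with the largest differences on the J2 side ranged from 1.70 to 2.44 on the log2 scale. Gabpa, a subunit of a transcription factor for many mitochondrial protein genes (chr16:84834925-84863779, plus strand), was at 247 and 236 CPM in the J2 libraries and at 51.1 and 37.6 CPM in the K1 libraries. Its log2 fold change was 2.44 ± 0.17 (SE, adjusted p = 0.0025), and the gap between the antibodies was far wider than that between animals. Over input of the same animal, Gabpa stood at 2.99 and 2.92 (log2) with J2 and at 0.65 and 0.19 with K1. An exon of Gabpa overlaps Atp5j, a subunit of ATP synthase on the opposite strand, and the deposited counts were made without strand. Atp5j itself was at 7.10 and 7.29 CPM with J2 and at 16.3 and 13.3 CPM with K1, a log2 fold change of -1.04 ± 0.17 (SE, adjusted p = 0.0061), so the neighbours lay on different sides.

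Muc3, a membrane mucin of the enterocyte brush border (chr5:137134922-137149322), was the most abundant of the 12 genes. It was at 4143 and 2787 CPM with J2 and at 1169 and 871 CPM with K1 (log2 fold change 1.76 ± 0.23 SE, adjusted p = 0.0037). Against input it was higher by 2.18 and 2.05 with J2 and by 0.28 and 0.28 with K1. Magt1, a subunit of the oligosaccharyltransferase complex, was at 476 and 347 CPM against 138 and 96.6 CPM. Zfp644, a zinc finger protein, was at 231 and 265 CPM against 73.9 and 65.8 CPM, and Rab31, a vesicle GTPase, at 55.2 and 56.8 CPM against 16.5 and 16.5 CPM. In these 3 genes the lowest J2 value was at least 2-fold above the highest K1 value. Haus2, of the augmin complex, had a log2 fold change of 2.03, Fam206a 2.23, Cacybp 1.84, Lipo3 1.84, Glt28d2 1.73 and the growth factor Igf2 1.74, and Malat1 is described with the nuclear lncRNAs. All 12 genes passed in each fit that left out a library.

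On the K1 side the 12 largest differences ranged from -2.22 to -1.84, and 9 of the 12 were histone genes. Hopx, a small homeodomain protein that does not bind DNA (chr5:77086988-77115121, minus strand), was at 16.3 and 17.4 CPM with J2 and at 89.0 and 67.6 CPM with K1 (log2 fold change -2.22 ± 0.17 SE, adjusted p = 0.0025). Over input it stood at 0.71 and 0.50 with J2 and at 3.07 and 2.36 with K1. The opposite-strand gene Hopxos overlaps its exons. Ndufa4, a respiratory chain subunit, was at 7.43 and 7.84 CPM with J2 and at 29.9 and 26.9 CPM with K1, and lay below input with both antibodies, by -3.67 and -3.67 with J2 and by -1.75 and -1.99 with K1. Snora23, a small nucleolar RNA, was at 12.5 and 13.0 CPM with J2, and its K1 values of 31.5 and 82.5 CPM differed widely between animals. The K1 genes thus include some that K1 raised above input, as Hopx, and some that both antibodies recovered poorly, as Ndufa4.

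**Figure D2:**
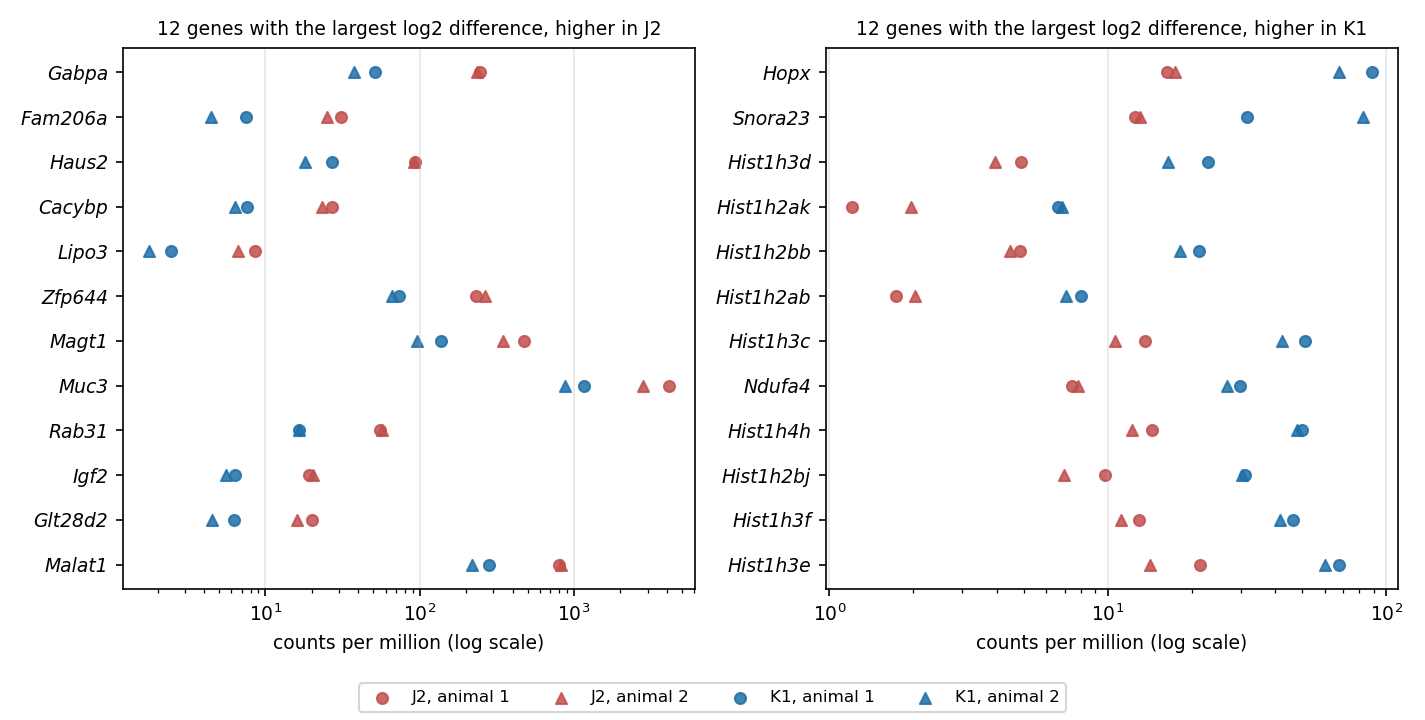
CPM (log axis) of the 12 genes with the largest log2 difference in each direction in the 2 J2 libraries (red) and 2 K1 libraries (blue), circles for animal 1 and triangles for animal 2. The colours do not overlap for any gene shown, which the rule for choosing these genes required.

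Replication-dependent histone genes, whose mRNAs end in a stem-loop in place of a poly(A) tail, formed the group with the lowest median. Of 68 genes 47 were tested, 42 were higher in K1, none was higher in J2, and the median was -1.68 against -0.02 for all genes tested. Hist1h1d, a linker histone, was at 115 and 93.0 CPM with J2 and at 347 and 303 CPM with K1 (log2 fold change -1.64 ± 0.15 SE, adjusted p = 0.0025). Hist1h1e was at 89.1 and 80.03 CPM against 241 and 249 CPM, and Hist1h1c at 59.0 and 57.1 CPM against 189 and 189 CPM. The core histone Hist1h4d was at 44.5 and 39.3 CPM against 124 and 121 CPM. In each of these 4 genes the animals were close to each other and the K1 values were well above the J2 values. The 9 histone genes among the 12 largest differences were Hist1h3d, Hist1h2ak, Hist1h2bb, Hist1h2ab, Hist1h3c, Hist1h4h, Hist1h2bj, Hist1h3f and Hist1h3e, at -2.15 to -1.84. Against input the histone median was -2.56 and -2.62 with J2 and -0.95 and -0.89 with K1 in the 2 animals. Histone genes are near-identical copies, so counts of single genes are less certain than the group. The count higher in K1 stayed between 39 and 42 when any library was left out.

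The stem-loop shown above was searched for on the transcript strand as a stem of 6 base pairs, with pyrimidines after the first 2 bases GG and purines before the last 2 bases CC, and a loop of 4 with at least 2 T. It was found in 133 of 13583 transcripts (0.979%), among them 34 of the 47 histone genes. The 34 histone genes with it had a median of -1.69 (31 higher in K1) and the 13 without it a median of -1.46 (11 higher in K1). The 99 other genes with the pattern had a median of 0.15, with 19 higher in J2 (19.2% against 17.5% of all genes) and 15 higher in K1 (15.2% against 20.3%). Tbc1d14, a GTPase-activating protein regulator of autophagy, holds the pattern and was at 418 and 395 CPM with J2 and at 267 and 231 CPM with K1 (log2 fold change 0.71 ± 0.12 SE, adjusted p = 0.0065, and 0.058 without J2 replicate 1). A match of letters does not show that the fold forms.

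Mitochondrial mRNAs were higher in J2. All 13 were tested, all 13 had a positive difference, 12 passed and the median was 0.95. As the counts were made without strand, RNA of either strand of the mitochondrial genome can enter them. mt-Nd5, a complex I subunit, was at 7776 and 10841 CPM with J2 and at 4853 and 4981 CPM with K1 (log2 fold change 0.92 ± 0.19 SE, adjusted p = 0.011). mt-Nd6, the protein gene of the other strand that overlaps mt-Nd5, was at 1896 and 2763 CPM against 1118 and 1290 CPM (0.95 ± 0.20 SE). Both lay above input with J2, mt-Nd5 by 0.88 and 1.51 and mt-Nd6 by 1.69 and 2.40, and both also lay above it, by less, with K1. The median of the 13 mRNAs lay below input, by -1.13 and -0.76 with J2 and by -1.84 and -1.62 with K1. mt-Co1, a subunit of cytochrome oxidase, was at 5252 and 5868 CPM against 3966 and 3268 CPM, and mt-Nd1 at 3794 and 4401 CPM against 2277 and 1866 CPM. The ribosomal RNA mt-Rnr2 was at 621 and 911 CPM against 488 and 516 CPM (0.61 ± 0.19 SE, adjusted p = 0.042), while mt-Rnr1 did not pass at 59.0 and 75.5 CPM against 49.7 and 49.8 CPM (adjusted p = 0.055 without and 4.8e-06 with the animal as a block). Without J2 replicate 2 only 6 of the 13 mRNAs passed, and mt-Nd5 (adjusted p = 0.077), mt-Nd6 (0.072) and mt-Rnr2 (0.30) did not. mt-Co1 did not pass without J2 replicate 1 (0.097), J2 replicate 2 (0.14) or K1 replicate 2 (0.052), and mt-Rnr2 did not without K1 replicate 1 (0.062). With the correction for GC content and length 8 of the 13 mRNAs and neither rRNA passed, with mt-Nd5 at an adjusted p of 0.072, mt-Nd6 at 0.13 and mt-Rnr2 at 0.385.

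Nuclear-encoded parts of the same organelle went the other way. Of 78 respiratory chain genes tested, 69 were higher in K1 and 1 in J2, with a median of -0.95. Atp5b, the catalytic subunit of ATP synthase, was at 454 and 448 CPM with J2 and at 682 and 768 CPM with K1. Sdha, of complex II, was at 327 and 320.3 CPM against 474 and 574 CPM, and Uqcrc1, of complex III, at 226 and 215 CPM against 335 and 375 CPM. These 3 genes had log2 fold changes of -0.68, -0.69 and -0.69 (adjusted p = 0.0067, 0.0087 and 0.0061). Atp5a1 did not pass, at 933 and 928 CPM against 1012 and 1160 CPM. The gene higher in J2 was Ndufb2, at 3.55 and 3.37 CPM against 0.946 and 0.840 CPM, named after its value was seen. Of 76 mitochondrial ribosomal protein genes tested, 41 were higher in K1 and 2 in J2 (median -0.67), with Mrpl12 at 25.7 and 26.8 CPM against 52.3 and 49.4 CPM, Mrpl38 at 26.6 and 22.8 CPM against 47.3 and 47.1 CPM and Mrpl45 at 38.4 and 38.6 CPM against 39.3 and 39.2 CPM. Mrpl15 was higher in J2, at 48.8 and 44.4 CPM against 31.5 and 24.8 CPM (adjusted p = 0.012, and 0.083 without J2 replicate 1). Without J2 replicate 1 or 2, 43 or 47 respiratory chain genes and 21 or 20 mitochondrial ribosomal protein genes were higher in K1. Atp5b, Sdha and Uqcrc1 then had adjusted p-values of 0.053 to 0.072.

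Cytosolic ribosomal protein genes were mostly higher in K1, with 59 of 79 tested higher in K1, 3 higher in J2 and a median of -0.88. Of its abundant members Rplp0, Rpl4 and Rpsa did not pass. Rplp0 was at 709.8 and 708 CPM with J2 and at 769.7 and 797 CPM with K1, Rpl4 at 701 and 825 CPM against 539 and 627 CPM, and Rpsa at 646 and 677 CPM against 678 and 688 CPM. The 59 genes higher in K1 were all less abundant than these 3. The 3 genes higher in J2, named after their values were seen, were Rps24 (0.78 ± 0.11 SE, adjusted p = 0.0039), Rpl3 (0.48 ± 0.11, 0.015) and Rps6 (0.37 ± 0.10, 0.032). Without J2 replicate 1 and without J2 replicate 2, 46 genes were higher in K1 and 1 in J2, with Rpl3 at an adjusted p of 0.12 and 0.14 and Rps6 at 0.16 and 0.24. Rps6 also did not pass without K1 replicate 1 (0.059) or K1 replicate 2 (0.053), and Rpl4 passed without K1 replicate 2 (0.036). Many ribosomal protein genes have processed pseudogenes, and reads that align to several places were not counted.

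Small RNAs made by RNA polymerase III split. All 6 tested genes of a list of 10 passed, 5 higher in K1 and 1 in J2. Rpph1, the RNA of ribonuclease P (chr14:50807449-50807767), was at 4049 and 5360 CPM with J2 and at 8926 and 14242 CPM with K1 (log2 fold change -1.30 ± 0.26 SE, adjusted p = 0.010). Against input it was higher by 1.18 and 1.79 with K1 and by 0.11 and 0.47 with J2. The signal recognition particle RNAs Rn7s1 and Rn7s2 had log2 fold changes of -1.34 ± 0.28 and -1.55 ± 0.29 (SE, adjusted p = 0.013 and 0.0088), with Rn7s1 at 5.76 and 7.60 CPM against 12.7 and 21.1 CPM. Rn7sk, the 7SK RNA that holds the elongation factor P-TEFb, was at 2721 and 3166 CPM with J2 and at 1706 and 1924 CPM with K1 (0.70 ± 0.14 SE, adjusted p = 0.011). Without J2 replicate 1 only 1 of the 5 stayed higher in K1, with Rpph1 at an adjusted p of 0.069, Rn7s1 at 0.059 and Rn7sk at 0.054, and Rn7sk was at 0.098 without J2 replicate 2. With a correction for GC content and length 2 genes were higher in K1 and 1 in J2, and Rpph1 (adjusted p = 0.17) and Rn7s1 (0.0501) did not pass.

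Of 7 Cajal body RNAs tested, 5 were higher in K1 and none in J2 (median -0.998), and 1 and 2 passed without J2 replicate 1 and 2. Scarna2 was at 119 and 115 CPM with J2 and at 166 and 225 CPM with K1 (log2 fold change -0.74 ± 0.16 SE, adjusted p = 0.014, and 0.065 and 0.076 without J2 replicate 1 and 2), and its difference was 0.01 with the correction for GC content and length. Neither of the 2 spliceosomal RNAs tested, nor the 1 mitochondrial tRNA tested, passed. Of 17 small nucleolar RNAs tested, 4 were higher in each antibody (23.5% each) and the median was -0.07. Of all genes 17.5% were higher in J2 and 20.3% in K1. Gm24119 was at 1.94 and 1.80 CPM against 5.74 and 10.4 CPM. Snord17 was at 5.49 and 6.51 CPM against 3.31 and 4.13 CPM (adjusted p = 0.046), but did not pass without J2 replicate 1 (0.10), J2 replicate 2 (0.22) or K1 replicate 1 (0.15). After J2 replicate 1 was left out, 1 small nucleolar RNA was higher in J2 and 2 in K1. With the animal as a block 7 small nucleolar RNAs were higher in J2 and 5 in K1. Among 11 lncRNAs that host small nucleolar RNAs, 3 were higher in K1 (27.3%) and 1 in J2 (9.09%). Zfas1 was at 2.74 and 2.59 CPM against 5.74 and 6.30 CPM (adjusted p = 0.0072). Gas5 (0.033) and Snhg18 (0.030) passed on opposite sides, but without J2 replicate 1 they were at 0.086 and 0.21.

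Nuclear-retained lncRNAs were all on the J2 side. All 5 tested genes of a list of 7 passed, with a median of 1.55, and all 5 passed in each fit that left out a library. Malat1, a lncRNA of nuclear speckles (chr19:5795690-5802672), was at 803 and 828 CPM with J2 and at 283 and 219 CPM with K1 (log2 fold change 1.70 ± 0.15 SE, adjusted p = 0.0025). Both antibodies recovered less of it than input held, by -1.71 and -1.68 with J2 and by -3.29 and -3.68 with K1. Neat1, the lncRNA of paraspeckles, was at 56.4 and 54.0 CPM against 24.2 and 21.6 CPM. Xist, which coats the inactive X chromosome, was at 92.2 and 76.8 CPM against 36.3 and 24.5 CPM. Tug1 was at 541 and 475 CPM against 199 and 148 CPM, and Kcnq1ot1, an imprinted antisense RNA, at 57.0 and 47.6 CPM against 20.3 and 15.1 CPM. Across the list the median over input was -1.71 and -1.68 with J2 and -3.29 and -3.52 with K1, so the J2 side here means a smaller loss from input. Malat1, Tug1, Xist and Kcnq1ot1 overlap genes of the opposite strand, and their counts can hold reads of those genes.

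**Figure D3:**
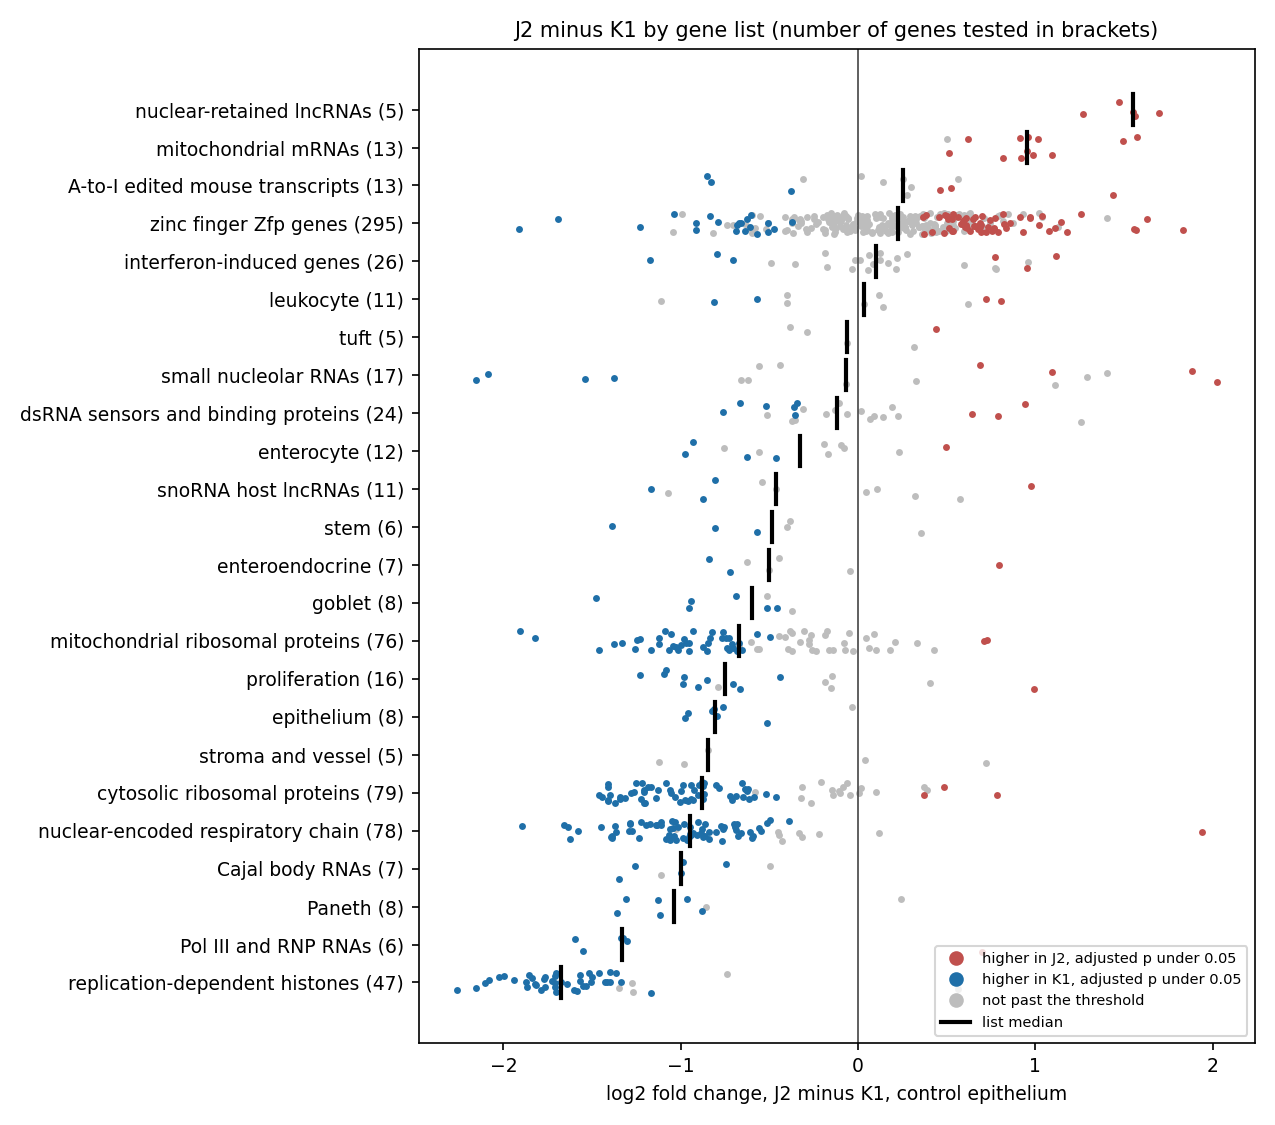
Log2 fold change (x axis, J2 minus K1) of each tested gene in the lists with at least 5 tested genes, red where higher in J2, blue where higher in K1 and grey where the test was not passed; black bars are list medians. Histone genes lie furthest to the K1 side, with a median of -1.68, and nuclear-retained lncRNAs furthest to the J2 side, with a median of 1.55.

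Zinc finger genes of the Zfp name, mostly transcription regulators, had a median of 0.23, with 63 of 295 tested higher in J2 and 21 higher in K1. Zfp652 was at 832 and 876 CPM with J2 and at 627 and 577 CPM with K1, and Zfp827 at 279 and 322 CPM against 206 and 211 CPM (log2 fold changes 0.51 and 0.53, adjusted p = 0.016 and 0.015). Zfp106, at 651 and 675 CPM against 528 and 532 CPM, did not pass, nor did Zfp91, at 441 and 376 CPM against 413 and 314 CPM. With J2 replicate 1 or 2 left out the counts fell to 19 and 20 higher in J2 and to 3 and 5 higher in K1, and neither Zfp652 (adjusted p = 0.11 and 0.14) nor Zfp827 (0.058 and 0.15) passed. With the animal as a block they were 108 and 37. The share higher in J2, 21.4%, was near the 17.5% of all genes, while the share higher in K1, 7.12%, was below the 20.3% of all genes. With the correction for GC content and length the median was 0.07, 47 genes were higher in J2 and 20 in K1, and Zfp652 did not pass (adjusted p = 0.13).

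Transcripts known to be edited from adenosine to inosine by ADAR enzymes, an event that needs double-stranded RNA, did not lie on 1 side. Of 13 tested, 3 were higher in J2 and 3 in K1 (23.1% each, against 17.5% and 20.3% of all genes), and the median was 0.26. Son, a splicing factor of nuclear speckles (chr16:91647506-91679221), was at 1048 and 1094 CPM with J2 and at 403 and 388 CPM with K1 (log2 fold change 1.44 ± 0.11 SE, adjusted p = 0.0025). Over input it stood at 1.59 and 1.72 with J2 and at 0.15 and 0.13 with K1, and it overlaps Donson on the opposite strand. Copa, a coat protein of Golgi vesicles, was at 331 and 334 CPM against 424 and 441 CPM (-0.38 ± 0.11 SE, adjusted p = 0.031). Azin1, at 581 and 519.6 CPM against 475 and 418 CPM, did not pass. Rpa1 and Slc7a2, named here for their inverted repeats after their values were seen, were at 284 and 296 CPM against 223 and 198 CPM (0.46 ± 0.11 SE, adjusted p = 0.021) and at 6.23 and 7.05 CPM against 4.14 and 4.83 CPM (adjusted p = 0.060). When J2 replicate 1 or 2 was left out, Copa was at an adjusted p of 0.23 and 0.20 and Rpa1 at 0.12 and 0.16, and without K1 replicate 2 they were at 0.083 and 0.057. In the fit lacking J2 replicate 1, the list had 1 gene higher in J2 and none in K1, and with the animal as a block it had 7 and 4.

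Genes of dsRNA sensing were not set apart either, with 3 of 24 tested higher in J2, 6 higher in K1 and a median of -0.12. Mavs, the adaptor of cytosolic RNA helicase sensors, was at 212 and 210.2 CPM with J2 and at 135 and 135 CPM with K1 (log2 fold change 0.64 ± 0.10 SE, adjusted p = 0.0055). Dicer1, the nuclease that cuts precursors of microRNA, was at 136 and 139 CPM against 175 and 174 CPM, and the helicase Dhx9 at 118 and 111 CPM against 151 and 142 CPM (adjusted p = 0.039 and 0.041). After J2 replicate 1 was left out, no gene of the list was higher in J2 and 1 was higher in K1. Mavs was then at an adjusted p of 0.055 (0.052 without J2 replicate 2). Dicer1 and Dhx9 passed in none of the 4 fits that left out a library, with adjusted p-values of 0.057 to 0.28. With the animal as a block 6 genes were higher in J2 and 9 in K1.

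Interferon-induced genes were higher in J2 for 3 of 26 tested and in K1 for 3 (11.5% each, against 17.5% and 20.3% of all genes), with a median of 0.10. Dtx3l, a ubiquitin ligase partner of Parp9, was at 1427 and 991 CPM with J2 and at 683 and 433 CPM with K1 (log2 fold change 1.12 ± 0.26 SE, adjusted p = 0.017, and 0.081 without J2 replicate 1). Parp9 overlaps it on the opposite strand. Irf7, a transcription factor of the interferon response, was at 416 and 396 CPM against 222 and 198 CPM (0.95 ± 0.11 SE, adjusted p = 0.0032). Trim25, at 398 and 359 CPM against 362 and 311 CPM, and Parp14, at 209.8 and 163 CPM against 176 and 146 CPM, did not pass. Values of animal 1 were above those of animal 2 with both antibodies for all 4 genes. With J2 replicate 1 left out, the list had 1 gene higher in J2 and 2 in K1, without K1 replicate 1 it had 9 and 1, and with the animal as a block 8 and 5.

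Markers of the epithelium and of goblet and Paneth cells lay mostly on the K1 side. Of 8 epithelial genes 7 were higher in K1, none in J2, and the median was -0.81. Krt8, a keratin, was at 707 and 768 CPM with J2 and at 1266 and 1605 CPM with K1 (log2 fold change -0.96 ± 0.15 SE, adjusted p = 0.0053), and Krt19 at 361 and 376 CPM against 668 and 779 CPM. Vil1, an actin bundler of microvilli that overlaps Usp37 on the opposite strand, was at 1333 and 1398 CPM against 2121 and 2516 CPM, and the adhesion protein Cdh1 at 870 and 856 CPM against 1175 and 1287 CPM. The K1 values of these 4 genes were all above their J2 values. Such a lack of overlap, in either direction, was seen in 72.0% of all genes tested. When J2 replicate 1 was left out, only 1 of the 8 passed, with Krt8 at an adjusted p of 0.050, Vil1 at 0.081 and Cdh1 at 0.14. Without J2 replicate 2, 5 passed, with Vil1 at 0.055 and Cdh1 at 0.14.

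Of 8 goblet cell genes 6 were higher in K1 and none in J2 (median -0.60). Fcgbp, a mucus protein, was at 2817 and 2951 CPM with J2 and at 6772 and 9283 CPM with K1 (log2 fold change -1.48 ± 0.18 SE, adjusted p = 0.0033). Muc2, the gel-forming mucin, was at 2015 and 1929 CPM against 2463 and 2942 CPM (adjusted p = 0.042), Clca1 at 342 and 345 CPM against 584 and 749.5 CPM, and Zg16, which did not pass, at 446 and 475 CPM against 535 and 658 CPM. In the fit lacking J2 replicate 1, and likewise without J2 replicate 2, 3 genes passed, and Muc2 did not (0.21 and 0.23), nor did it without K1 replicate 2 (0.14). Without K1 replicate 1 all 8 passed, Zg16 at 0.017. Of 8 Paneth cell genes 6 were higher in K1 (median -1.04). Itln1, a lectin, was at 155 and 139 CPM against 357 and 399 CPM, and the defensin Defa24 at 31.1 and 46.0 CPM against 84.8 and 106 CPM. Lyz1, lysozyme, did not pass, at 1080 and 1004 CPM against 964 and 798 CPM. Defensin genes are near-identical copies, and Defa30 (-0.88 ± 0.16 SE) was at an adjusted p of 0.063 without J2 replicate 1.

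Enterocyte genes were less one-sided, with 4 of 12 higher in K1 (33.3% against 20.3% of all genes) and 1 in J2 (8.33% against 17.5%). Their median was -0.33. Anpep, the brush border aminopeptidase N, was higher in J2, at 7286 and 7276 CPM against 4812 and 5531 CPM (log2 fold change 0.49 ± 0.14 SE, adjusted p = 0.034). Apoa1, at 2364 and 3106 CPM against 3562 and 5687 CPM, did not pass (adjusted p = 0.051 without and 3.3e-13 with the animal as a block). Anpep did not pass without J2 replicate 1 (0.21), J2 replicate 2 (0.17) or K1 replicate 1 (0.13), and Apoa1 passed without K1 replicate 1 (0.0041). After J2 replicate 1 was left out, none of the 12 passed. Of the enteroendocrine genes 2 of 7 were higher in K1 (28.6%) and 1 in J2 (14.3%), near the shares of all genes. Of the stem cell genes 3 of 6 were higher in K1 and none in J2, and of the tuft cell genes none of 5 and 1. The medians of these 3 lists were -0.50, -0.49 and -0.06, and without J2 replicate 1 they were -0.39, -0.46 and 0.11. Chgb was at 21.02 and 21.9 CPM against 28.9 and 42.0 CPM, Sox9 at 36.4 and 38.2 CPM against 59.3 and 71.3 CPM, and Dclk1 at 63.8 and 56.5 CPM against 48.0 and 40.8 CPM. Of 11 leukocyte genes tested, 2 were higher in each antibody (18.2% each), near the shares of all genes. Cd74 was higher in K1, at 507 and 482 CPM against 704 and 763 CPM, while the lymphocyte genes Cd8a, at 19.6 and 21.01 CPM against 12.6 and 12.05 CPM, and Itgae, at 16.3 and 17.3 CPM against 9.40 and 9.81 CPM, were higher in J2. Without J2 replicate 2 Cd74 was at an adjusted p of 0.11, Cd8a at 0.069 and Itgae at 0.055. With the correction for GC content and length Dclk1 (0.33) and Cd74 (0.14) did not pass.

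Proliferation genes were higher in K1 for 10 of 16 and in J2 for 1 (median -0.75). Top2a, a DNA topoisomerase, was at 75.2 and 64.8 CPM with J2 and at 123 and 106 CPM with K1, and the replicative helicase subunits Mcm5 and Mcm7 had log2 fold changes of -0.67 and -0.44 (adjusted p = 0.011 and 0.025). The gene higher in J2 was Mki67, a chromosome surface protein, at 452 and 436 CPM against 233 and 212 CPM (log2 fold change 0.99 ± 0.11 SE, adjusted p = 0.0030). Mki67 has an annotated exonic length of 10061 bases. Without J2 replicate 2, 5 genes were higher in K1, with Top2a at an adjusted p of 0.080, Mcm5 at 0.091 and Mcm7 at 0.13.

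The side a gene took went with the length and base composition of its transcript. Across 11922 genes with an annotated coding sequence Spearman's rho of the log2 fold change with 3′UTR length was 0.43 (0.40 and 0.44 in the 2 animals), and with GC content across 13583 genes it was -0.34. With exonic length it was 0.22, and with the coding length 0.14. These are descriptions across genes, which are not independent and share libraries, depth and base composition. With genes ordered into 10 bins of near-equal size, the bin of the shortest 3′UTRs (up to 195 bases) had a median of -0.50, and 6.37% were higher in J2 and 41.8% in K1. In the bin of the longest (3722 bases or more) it was 0.44, with 40.7% and 3.60%. From the bin with the lowest to that with the highest GC content the median went from 0.31 to -0.52.

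Length and GC content overlapped only in part. With GC content and 3′UTR length each divided into 3 bins, among genes of high GC content (53.18% or more), coding genes with a short 3′UTR (up to 669 bases) had a median of -0.54 and those with a long one (1831 bases or more) 0.12. Among genes of low GC content (up to 46.98%) the same medians were -0.08 and 0.28. A difference with 3′UTR length was thus seen at both high and low GC content, and a difference with GC content at both short and long 3′UTRs. After a correction of each library for GC content and exonic length, 5241 genes passed, 4049 of them shared with the uncorrected test. The medians of the histone genes (-1.21), respiratory chain genes (-0.77), cytosolic ribosomal protein genes (-0.71), mitochondrial mRNAs (0.69) and nuclear-retained lncRNAs (1.06) kept their sign under it. That of the edited transcripts did not (-0.08). The correction did not include 3′UTR length. After it, coding genes with a short and a long 3′UTR had medians of -0.22 and 0.27 at high GC content. At middle GC content these were -0.37 and 0.16, and at low GC content -0.24 and -0.02. Whether the list medians depend on 3′UTR length was not tested.

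**Figure D4:**
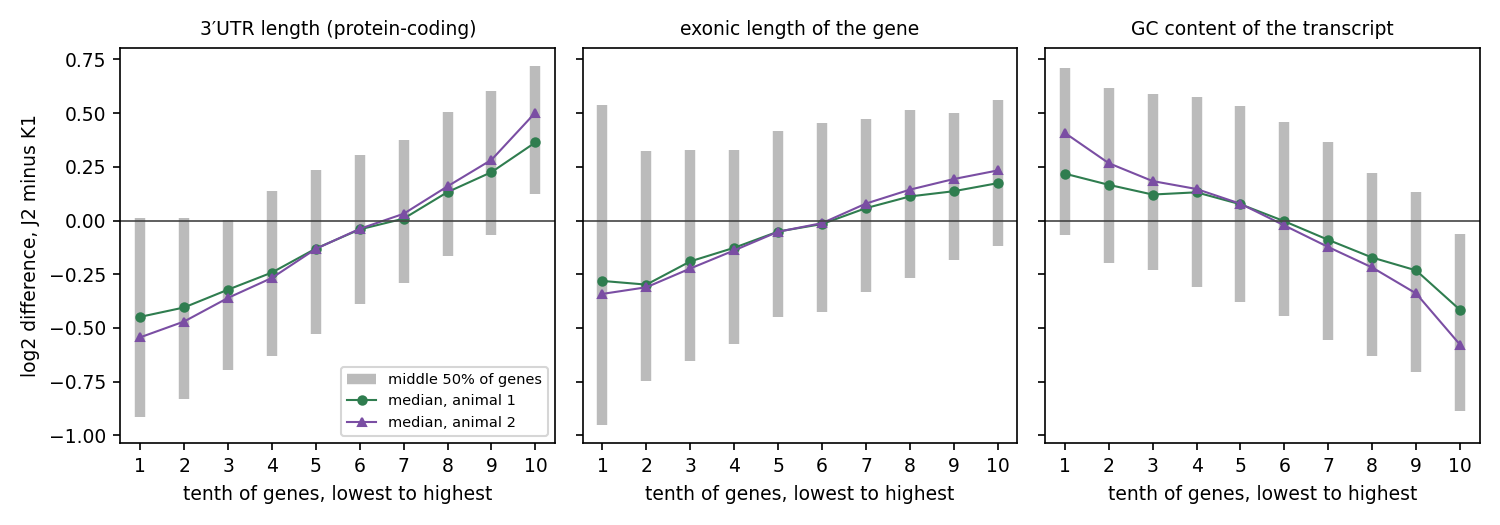
Median log2 difference (y axis, J2 minus K1) in animal 1 (circles) and animal 2 (triangles) by 10 bins of genes ordered by 3′UTR length, exonic length and GC content, with the middle 50% of genes as grey bars. The median rises with 3′UTR length and exonic length and falls with GC content in both animals.

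Genes whose transcript holds an inverted repeat, here 2 arms of at least 100 bases with at least 75% identity in opposite orientation, leaned to J2. Of 147 such genes 74 were higher in J2 (50.3% against 17.5% of all genes) and 7 in K1 (4.76% against 20.3%), and the median was 0.63 (0.54 and 0.71 in the 2 animals) against -0.03 for genes without one. Over input the median stood at 0.93 and 0.86 with J2 and at 0.49 and 0.26 with K1, so the median lay above input with both antibodies, while that of the 41 genes that are not protein-coding lay below it with K1 (-0.88 and -1.17). In 102 of the genes the repeat lay in the 3′UTR (median 0.46, 42 higher in J2, 7 in K1). Protein-coding genes with a repeat numbered 106 (median 0.46) and 94 of them had a long 3′UTR, where the median of genes without a repeat was 0.25. The other 41 genes with a repeat, 22 of them transcripts of unsettled coding status and the rest lncRNAs, all had a positive difference, with 31 higher in J2 and a median of 1.28, against 0.56 for the 1668 tested genes without a repeat that are not protein-coding, which include other RNA classes and pseudogenes. With the correction for GC content and length the median of the 147 genes was 0.36 against -0.05 without a repeat, and that of the 106 protein-coding ones 0.21 against -0.10.

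Slc35e2, a member of a sugar transporter family (chr4:155601416-155623340), was at 1320 and 1432 CPM with J2 and at 886 and 827 CPM with K1 (log2 fold change 0.68 ± 0.12 SE, adjusted p = 0.0071). It was far above input with both antibodies, by 3.18 and 3.37 with J2 and by 2.54 and 2.49 with K1. Ap2m1, a subunit of the clathrin adaptor AP-2 (chr16:20535478-20544909), was at 111 and 106 CPM with J2 and at 179.6 and 179 CPM with K1 (-0.72 ± 0.10 SE, adjusted p = 0.0043). It was below input with both, by -0.87 and -0.86 with J2 and by -0.24 and -0.20 with K1, although its arms pair more closely than those of Slc35e2. Slc35e2 was at an adjusted p of 0.053 and 0.072 without J2 replicate 1 and 2, and Ap2m1 at 0.051 without J2 replicate 2. Genes with an exon that overlaps an exon of the opposite strand, another possible source of double-stranded RNA, had a median of -0.0024 (4108 genes, 17.9% higher in J2) against -0.03 for the others (9509 genes, 17.3%). Reads ambiguous between genes were not counted for any gene. They made up 3.65% and 4.03% of listed reads with J2 and 4.29% and 5.01% with K1. Reads from the overlaps themselves can thus be missing from these medians, and their recovery by each antibody was not tested.

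**Figure D5:**
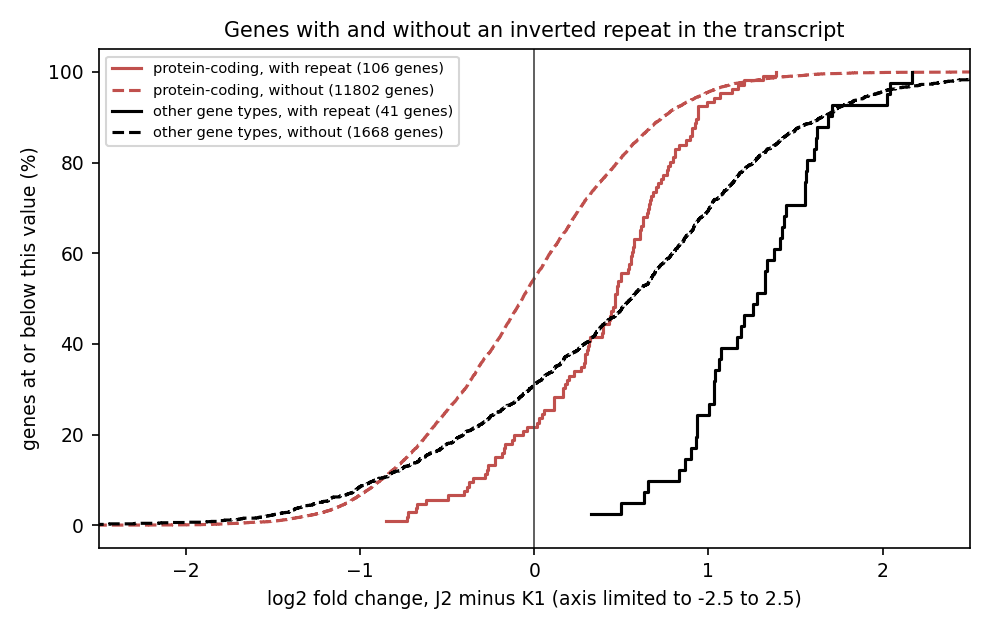
Cumulative share of genes (y axis, %) by log2 fold change (x axis, J2 minus K1) for protein-coding genes (red) and other gene types (black) with an inverted repeat (solid) and without one (dashed). Both solid lines lie to the right of their dashed lines over most of their range, with medians of 0.46 against -0.07 and of 1.28 against 0.56.

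The same contrast in the 2 DKO animals gave 0 calls among 11336 genes (edgeR), with 25 at an unadjusted p under 0.05 and 0 calls by DESeq2. Of the 5147 control genes 4534 were tested there and 3239 had the same sign. The difference between the control and the DKO contrast was tested directly in the 8 pulldowns, and 0 of 14285 genes passed (edgeR), with 506 at an unadjusted p under 0.05. With each animal as a block 1 gene passed, Hist1h3f, whose difference was lower in control by -2.68 ± 0.29 (log2, SE, adjusted p = 0.032), and by DESeq2 1 gene passed, Xbp1, whose difference was higher in control by 2.69 ± 0.51 (adjusted p = 0.0026). Xbp1, a transcription factor of secretory cells, was at 700.2 and 645 CPM with J2 and at 267 and 224 CPM with K1 in control. The rho with 3′UTR length was 0.25 and 0.01 in the 2 DKO animals. The median of the inverted-repeat genes was 0.31 and -0.10 there, and that of the histone genes -0.58 and 0.12, so the DKO animals differed from each other on these measures.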

How the data were processed

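The authors deposited unnormalised read counts for each gene and library. Per the labels' protocols, libraries were made with random hexamers, rRNA depletion and unique molecular identifiers. The submitters' processing notes name STAR 2.7.10b, SAMtools 1.17, UMI-tools 1.1.4, HTSeq 2.0.2, DESeq2 1.40.1, edgeR 3.42.2 and deepTools 3.5.2 and the builds mm10 and GRCm38.p4, without their order, and whether identifiers were used for these counts is not given in the sources used here. Of 48526 gene rows, 48144 matched GENCODE M21 by identifier without its version.

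The 4 control pulldowns were compared with edgeR 4.0.16 (R 4.3.3; filterByExpr with a minimum count of 10, TMM, quasi-likelihood test, Benjamini-Hochberg adjustment, threshold 0.05), with no block. The script was tested on simulated data. Differences to input use a prior count of 2 and a scaling over the 6 control libraries. Alternatives were DESeq2 1.42.0, limma 3.58.1 voom, other scalings, filters and library sets, each library left out, and the animal as a block. Same-numbered J2 and K1 libraries come from 1 animal by the sample codes, and their deviations from the group means correlated at 0.51. Replicates differed by more than sampling noise (chi-square per degree of freedom 12.7 for J2 and 22.7 for K1). With 2 animals, p-values measure the spread between these samples only. TMM scaling removes differences in total recovered RNA, and no library from an unspecific antibody was used here.

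Named genes are, in each direction, the 12 with the largest log2 fold change among genes that passed with a mean of at least 50 counts, a gene symbol other than a clone name and no overlap between the antibodies, up to 4 genes of the highest mean CPM in each list, and the most abundant gene called in each direction for each sequence feature. Some genes that meet this rule are not reported here. Genes named outside this rule were Rpa1, Slc7a2, Atp5j, Ndufb2, Kcnq1ot1, Rps24, Rps6, Rpl3 and Xbp1, after their values were seen. Members, lists and tests were chosen with earlier results of these data known. The stem-loop search, the coding length, the GC and length grids, the split of repeat genes by type and the correction for GC content and length without a block were added after the data were seen. Inverted repeats were found with blastn 2.17.0+ of each transcript against itself.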

Additional observations from a re-analysis of the deposited data

Results flagged for a closer look

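The median difference of the proliferation genes was -0.75 in control, with -0.72 and -0.80 in the 2 animals, and 0.01 and 0.04 in the 2 DKO animals. It is listed because both control animals lay below 0 and both DKO animals above it. The DKO values were close to the medians of all genes tested in these animals, 0.028 and 0.031. The difference between the genotypes was not tested for the list, and no gene of it passed the test of the difference between the contrasts.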

How the results depend on the processing

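With 2 animals a group, single libraries carry much of the result: 1892 to 5292 genes passed when 1 library was left out, against 5147. With the replicate block of the paired animals 8422 genes passed, and 8345 with the block and a correction for GC content and length. The fit of all 12 libraries made 0 calls. The test of control against DKO gave 1 gene with the replicate block and 1 by DESeq2, against 0. The cause of these changes was not tested. Over genes with a mean of at least 50 counts rho rose to 0.35 with exonic length and to 0.48 with 3′UTR length, and the median of genes with arms of at least 200 bases (9 genes) was 0.48.

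Of 108 named genes 93 passed, and 1 of these took the other sign under any of 16 alternatives. This was Scarna2, at 0.017 with the block and the GC and length correction and at 0.014 with the correction alone. Genes that did not pass took the other sign as follows. With the block and correction, and with the correction alone, Rplp0 was at 0.0501 and 0.0504, Zfp91 at -0.027 and -0.033, Azin1 at -0.078 and -0.081 and Parp14 at -0.047 and -0.043. Rpsa was at 0.0084 and Mrpl45 at 0.027 with a count minimum of 50, and at 0.044 and 0.062 with the input libraries added. With 1 library left out Zfp91 ranged from -0.0060 (without K1 replicate 2) to 0.384. Genes of low count are limited by depth.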
